A study of Rattus norvegicus with 8 samples.

Results

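The inner membrane of mitochondria is closed to most solutes, and the carriers of the SLC25 family move phosphate, nucleotides, organic acids, amino acids and cofactors across it. Most of them exchange 1 solute for another, so that the supply of phosphate, ADP and substrates to the matrix depends on several carriers at once. In the liver they also link the matrix to gluconeogenesis, lipid synthesis and ammonia handling in the cytosol. The genes described here are those whose single platform symbol is an Slc25a symbol with a number, together with Ucp2, the pyruvate carrier genes Mpc1 and Mpc2 and the outer membrane porin Vdac1. Slc25a13, Slc25a15 and Slc25a20 were left out. By this rule 41 of the 14217 genes with a single symbol were members, with 54 of 31042 probe sets.

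The livers came from male Wistar rats that were 4 weeks old at the start, were acclimatized for 7 days and then received a control diet or a high phosphorus (HP) diet for 24 days. Their age is given as 8 weeks. Both diets were based on AIN-93G, a purified rodent diet, with 0.3% phosphorus in the control diet and 1.2% in the HP diet. Of 5 rats fed each diet, 4 were analysed, each on its own Affymetrix array, so that the replicates are animals and their number sets the precision. Array medians over the measured probe sets ran from 8.76 to 8.81 (log2), and correlations between arrays from 0.968 to 0.992 across those probe sets. Of 5 hepatocyte markers with a named probe set, Apoa1 and Fgb were measured, with mean log2 values of 13.13 and 13.86. The other 3, Alb, Ttr and Serpina1, were almost constant at 14.53, 13.96 and 13.81. Markers of cholangiocytes, lymphocytes and muscle were almost constant too, at mean log2 values of at most 7.55. The markers of sinusoidal endothelium stood apart by diet: over the 3 of 6 listed that were measured (Kdr, Stab2 and Lyve1), the log2 of the summed level lay between 11.13 and 11.27 on the control diet, below all HP rats (11.31 to 11.45). All 3 had positive differences. By the tests described below, rank products called Kdr and Stab2 higher, as it did 8.48% of all measured genes. Limma called none of the 3 (adjusted p from 0.217 for Kdr to 0.708 for Lyve1). The 7 measured of 9 Kupffer cell markers all had negative differences (median -0.09, 0 called), and their summed level spanned 11.62 to 12.05 among controls, a range that held the HP rats (11.68 to 11.89). The 5 measured of 7 stellate cell and fibroblast markers all had positive differences (median 0.10, 0 called). The erythroid marker Hbb was called higher by rank products (0.24, FDR 0.0296) and not by limma (adjusted p = 0.454). Its highest value was in control rat 2 (11.64). The part of these markers in the results below was not tested. In whole liver, fewer cells of a type and less RNA per cell cannot be told apart.

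A gene was counted as measured when a probe set spanned at least 0.05 (log2) between the lowest and the highest rat. The authors' probe summary, FARMS, keeps the signal that the probes of a probe set share and leaves a probe set without it almost constant, so an almost constant value says little about the transcript. Of the 41 members, 14 (34.1%) were measured, against 19.8% of all genes with a single symbol. The measured probe set with the smallest span belonged to Slc25a3 (0.16), and the closest one below the limit was the second probe set of Slc25a10 (0.023). The other 27 genes spanned at most 0.00098. This held also for bright ones: Slc25a5, the main ADP/ATP carrier of liver, had a mean log2 value of 12.43 and Mpc1 one of 12.20, which 0.522% and 0.686% of all probe sets exceeded. The 2 other ADP/ATP carriers, Slc25a4 and Slc25a31, the mitoferrins Slc25a28 and Slc25a37, which import iron, and the uncoupling protein gene Ucp2 were not measured either. No diet comparison can be drawn for these genes.

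**Figure D1:**
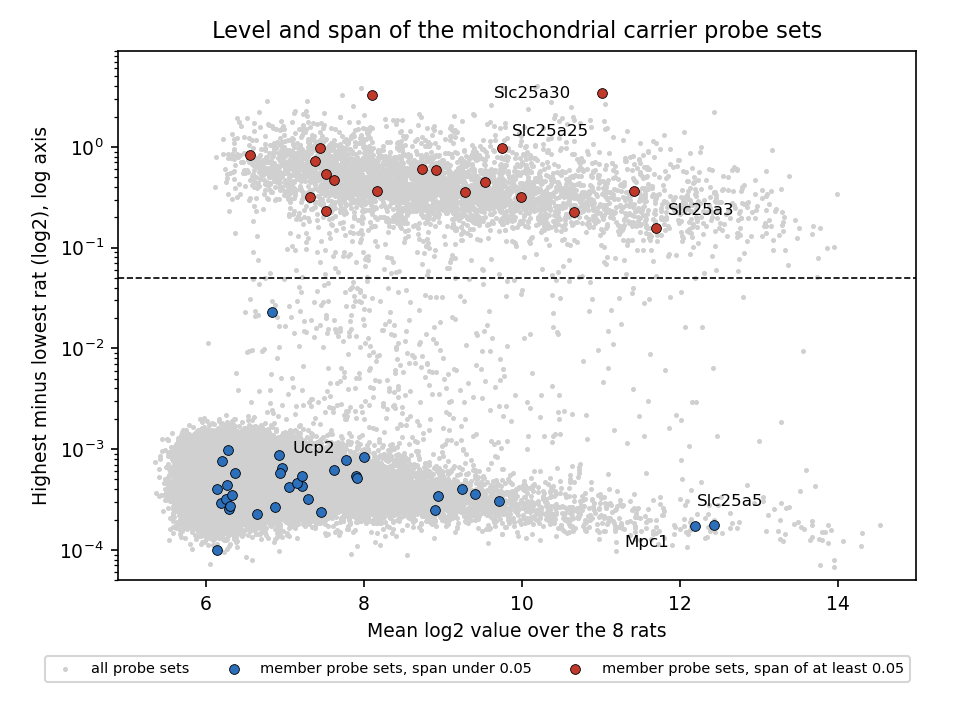
Mean log2 value over the 8 rats (x axis) and highest minus lowest rat in log2 units on a log axis (y axis) for all 31042 probe sets (grey) and the 54 member probe sets, of which 19 span at least 0.05 (red) and 35 do not (blue). The dashed line is the limit of 0.05. Slc25a30 lies at the top with a span of 3.39, and Slc25a5 and Mpc1 are among the brightest and almost constant.

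The deposited log2 values were compared between the diets by rank products, the method of the authors, over all probe sets (false discovery rate, FDR, under 0.05), and by limma, a linear model that shares its estimate of the spread among probe sets, over the 4155 measured probe sets (Benjamini-Hochberg adjusted p under 0.05, two-sided). By rank products 6 of the 14 measured members (42.9%) were lower on the HP diet, against 9.94% of the 2808 measured genes with a single symbol, and 1 (7.14%) was higher, against 8.48%. Slc25a10, Slc25a22, Slc25a23, Slc25a25, Slc25a32 and Slc25a45 were the lower ones and Slc25a30 the higher one. By limma 0 of the 14 passed, as in all measured genes (0.0%). The smallest adjusted p among the members was 0.322. At an unadjusted p under 0.05, limma gave 5 members lower (35.7%, against 6.3%) and 0 higher (against 5.77%). This split depended on the scaling and on the weight of each rat: after centring each array on its measured probe sets it was 1 lower (Slc25a32) and 1 higher (Mpc2), and with limma's array weights 5 lower and 2 higher (Mpc2 and Slc25a30). The shares over all measured genes were not counted after centring or with array weights, so these counts have no background to be read against. The differences were negative in 11 of the 14 (78.6%, against 54.7%), with a median of -0.11 (log2) against -0.01 for all measured genes. For none of the 14 were all HP rats above or all below all control rats, which held for 3.6% and 3.53% of the measured genes.

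The 6 lower calls rest on the almost constant probe sets being ranked too. When only the probe sets with a span of at least 0.05 were ranked, rank products called 0 of the 6 (FDR from 0.166 for Slc25a32 to 0.895 for Slc25a22) and kept Slc25a30 (FDR 0.0231), with 0.576% of the ranked probe sets called higher and 0.432% lower. On simulated arrays with independent noise and a chosen number and size of changes, most calls of rank products over all probe sets fell on unchanged probe sets. In that setting an FDR under 0.05 from it did not bound the share of false calls at that level. That share depends on the changes chosen, and the share among the calls on the real arrays is not known. For limma, false calls in a separate simulation of the measured probe sets stayed near the threshold. That simulation drew independent normal noise, the form that limma assumes. It could not test limma on deviations that probe sets share within a rat. Calls of rank products elsewhere in the text, those of the cell type markers included, are over all probe sets unless stated otherwise and carry this limit.

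**Figure D2:**
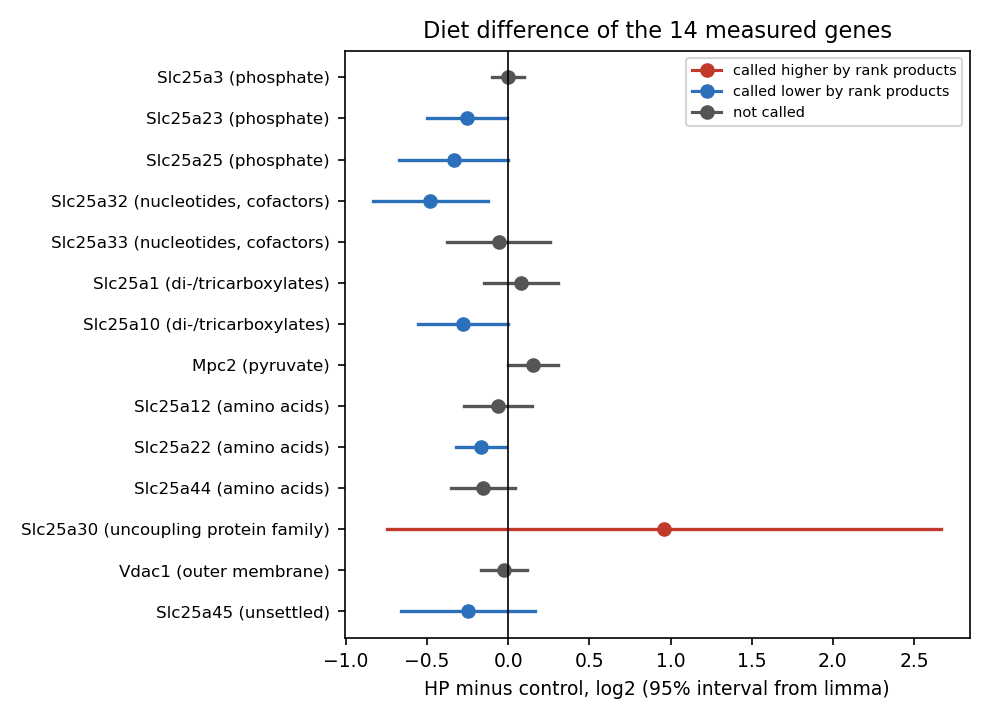
Difference in log2 value, HP minus control (x axis), for the 14 measured genes, each with its transported substrate, as the mean over 4 HP and 4 control rats with the 95% interval from limma. Colours give the call of rank products over all probe sets. Slc25a30 has the widest interval (-0.74 to 2.67), and Slc25a3 lies at 0 with a narrow one.

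Among the carriers that move phosphate, the phosphate carrier itself did not differ measurably, and both measured ATP-Mg/phosphate carriers were lower by rank products. Slc25a3 brings inorganic phosphate into the matrix together with a proton, where ATP synthase uses it. Its log2 value was 11.65, 11.69, 11.71 and 11.74 on the control diet and 11.63, 11.78, 11.69 and 11.69 on the HP diet. The lowest and the highest rat were both on the HP diet. The difference was -0.0030 (95% interval -0.10 to 0.10, limma adjusted p = 0.986). Its sign depended on a small offset between arrays, since after centring each array on its measured probe sets the difference was 0.018.

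The ATP-Mg/phosphate carriers exchange ATP-Mg for phosphate and so set the size of the adenine nucleotide pool of the matrix. Of this group Slc25a23 and Slc25a25, which respond to calcium, were measured, and Slc25a24 and Slc25a41 were not. Slc25a25 had log2 values of 10.22, 9.60, 9.88 and 9.95 on the control diet and 9.78, 9.25, 9.61 and 9.67 on the HP diet. Control rat 2 lay below 3 of the HP rats, and the other control rats lay above all of them. Slc25a25 was at 0.792 times its control level (log2 difference -0.34, standard error 0.15, rank products FDR 0.0192, limma adjusted p = 0.392). Rank products no longer called it without control rats 1, 3 or 4 or without HP rat 2 (FDR from 0.0670 to 0.131), and the difference was -0.23 without HP rat 2 and -0.23 without control rat 1.

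Slc25a23 had log2 values of 8.91, 8.93, 9.12 and 9.21 on the control diet and 9.06, 8.62, 8.72 and 8.75 on the HP diet. HP rat 1 lay above 2 of the control rats, and the other HP rats lay below all of them. It was at 0.838 times its control level (log2 difference -0.26, standard error 0.11, rank products FDR 0.0246, limma adjusted p = 0.384). A second, dimmer probe set of Slc25a23 (mean log2 value 7.52) had a difference of -0.05 and was not called (FDR 0.308), and the mean of both probe sets differed by -0.15. The call of the brighter one was lost without control rats 2, 3 or 4 or without HP rat 2 (FDR from 0.0563 to 0.134).

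Slc25a10, the dicarboxylate carrier, also moves phosphate, which it exchanges for malate or succinate. Its log2 values were 8.64, 8.77, 9.03 and 9.07 on the control diet and 8.47, 8.58, 8.48 and 8.85 on the HP diet. The lowest 3 rats were HP rats, and HP rat 4 lay within the range of the control rats. The level was 0.823 times that of the controls (log2 difference -0.28, standard error 0.12, rank products FDR 0.0196, limma adjusted p = 0.388). The call was lost without control rats 2, 3 or 4 (FDR from 0.0640 to 0.119).

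The 250 bases before the RefSeq start of these 4 phosphate-linked genes (build GRCr8, written in the direction of transcription) show what their promoters hold and share. Capitals mark matches on either strand to the letters of 6 motifs: the NRF-1 element, the ETS element CCGGAAG, the cAMP response element TGACGTCA, the E-box CACGTG, the nuclear receptor half-site AGGTCA and the CCAAT box, which reads ATTGG on the other strand.
Slc25a3, chr7:27506628-27506877, minus strand: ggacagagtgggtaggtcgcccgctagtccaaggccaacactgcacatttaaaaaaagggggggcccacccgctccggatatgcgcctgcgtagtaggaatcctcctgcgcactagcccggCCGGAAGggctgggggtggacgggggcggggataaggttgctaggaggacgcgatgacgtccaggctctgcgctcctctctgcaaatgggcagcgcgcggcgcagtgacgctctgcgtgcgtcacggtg
Slc25a23, chr9:1985366-1985615, minus strand: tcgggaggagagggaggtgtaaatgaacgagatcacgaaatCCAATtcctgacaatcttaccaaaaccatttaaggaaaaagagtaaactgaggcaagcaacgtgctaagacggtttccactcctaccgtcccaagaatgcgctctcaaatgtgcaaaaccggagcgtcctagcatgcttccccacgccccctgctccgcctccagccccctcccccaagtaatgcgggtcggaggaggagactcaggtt
Slc25a25, chr3:36116582-36116831, minus strand: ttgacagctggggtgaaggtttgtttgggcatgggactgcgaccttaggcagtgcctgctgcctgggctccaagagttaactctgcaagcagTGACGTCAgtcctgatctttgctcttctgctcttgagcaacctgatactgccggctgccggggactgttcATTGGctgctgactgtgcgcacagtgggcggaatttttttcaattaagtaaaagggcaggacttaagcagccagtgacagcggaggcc
Slc25a10, chr10:106264146-106264395, plus strand: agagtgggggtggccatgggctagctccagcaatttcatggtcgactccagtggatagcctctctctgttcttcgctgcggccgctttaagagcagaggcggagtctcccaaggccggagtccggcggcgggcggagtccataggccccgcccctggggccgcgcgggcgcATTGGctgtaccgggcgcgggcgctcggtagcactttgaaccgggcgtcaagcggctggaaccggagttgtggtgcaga

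The cAMP response element stood 158 to 151 bases before the start of Slc25a25, and these letters were found in 1.59% of the 33469 promoter windows of the same length. Of the 12 measured members with a promoter in the RefSeq table, Slc25a25 and Slc25a33 held it. The ETS element of Slc25a3, 129 to 123 bases before its start, also occurred in Mpc2 among the measured members and in 7.27% of all windows. A CCAAT box was found in 7 of the 12, among them Slc25a23, Slc25a25 and Slc25a10, and in 34.02% of all windows. The nuclear receptor half-site and the NRF-1 element were found in 0 of the 12, against 14.1% and 0.762% of all windows. The windows of all 35 members in the table had a median GC content of 59.6%, against 51.2% over all windows. These are matches of letters, and binding was not measured. Slc25a30 and Slc25a32 are named only.

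**Figure D3:**
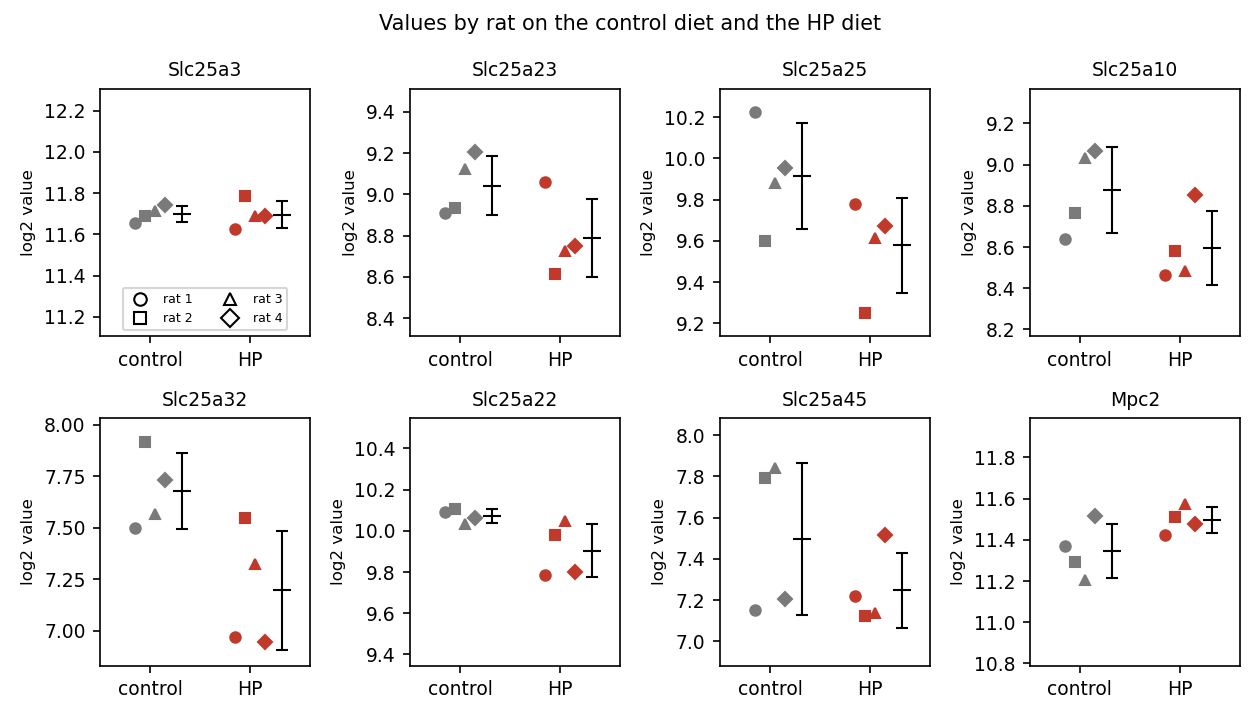
Log2 value (y axis, each panel spanning 1.2 units) of 8 genes in each rat, with control rats in grey and HP rats in red. The mean and SD of 4 rats are in black. Each replicate number has its own marker, and the numbers are not known to pair the rats. Every gene overlaps between the diets. Slc25a3 shows the tightest values, and Slc25a32 the lowest HP values relative to the controls.

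Of 6 carriers of cofactors and nucleotides other than adenine nucleotides, 2 were measured, and rank products called Slc25a32 lower. Slc25a32, the carrier tied to FAD and folate supply of the matrix, had log2 values of 7.50, 7.91, 7.57 and 7.73 on the control diet and 6.97, 7.55, 7.32 and 6.95 on the HP diet. Only HP rat 2 reached into the range of the control rats, where it lay above control rat 1. The level was 0.717 times that of the controls (log2 difference -0.48, standard error 0.16), the largest decrease of the 14 members. Rank products called it with an FDR of 0.00228, and limma gave an adjusted p of 0.322. A second probe set differed by -0.38 and was called too (FDR 0.00895). Rank products called Slc25a32 without each of the 8 rats in turn, with an FDR of at most 0.0472. Slc25a33, a carrier of pyrimidine nucleotides, differed by -0.06 (standard error 0.14) and was not called.

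The carriers of citrate and pyruvate had positive differences that did not pass. Slc25a1, the citrate carrier that supplies the cytosol with acetyl units for lipid synthesis, differed by 0.08 (standard error 0.10, rank products FDR 0.274), and by 0.010 without control rat 1 and 0.14 without HP rat 1. Mpc2, a subunit of the pyruvate carrier, had log2 values of 11.37, 11.29, 11.21 and 11.52 on the control diet and 11.42, 11.51, 11.57 and 11.48 on the HP diet. All HP rats lay above control rats 1, 2 and 3, and control rat 4 lay above 3 of the HP rats. The difference was 0.15 (standard error 0.07, rank products FDR 0.0841, limma adjusted p = 0.4), and without control rat 4 it was 0.21 and was called higher by rank products (FDR 0.0201). Its partner Mpc1 was not measured.

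Of 7 carriers of amino acids and glutathione, 3 were measured, and Slc25a18, Slc25a29, Slc25a38 and Slc25a39 were not. The 3 had negative differences, of which 1 was called. Slc25a22, a glutamate carrier, had log2 values of 10.09, 10.10, 10.03 and 10.06 on the control diet and 9.79, 9.98, 10.05 and 9.80 on the HP diet. HP rats 1 and 4 were well below the narrow range of the controls (SD 0.03, n = 4), HP rat 2 just below it and HP rat 3 within it. The level was 0.890 times that of the controls (log2 difference -0.17, standard error 0.07, limma adjusted p = 0.373). Its rank products FDR of 0.0492 was just under the threshold, and it stayed under it only without HP rat 3 when 1 rat was left out (FDR from 0.0516 to 0.173 without each of the others). Slc25a44, linked to branched-chain amino acids, differed by -0.15 at one probe set and -0.14 at the other (FDR 0.0958 and 0.179), and Slc25a12, an aspartate/glutamate carrier, by -0.06 (FDR 0.491).

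Slc25a30, a relative of the uncoupling proteins without a settled role, varied most among the members, and the spread within the control diet was larger than the difference between the diets. Its log2 values were 12.15, 9.39, 8.89 and 11.74 on the control diet and 12.28, 11.50, 11.63 and 10.60 on the HP diet. Control rats 2 and 3 were low, control rats 1 and 4 were as high as most HP rats, and HP rat 4 lay between. The span of 3.39 was the fifth largest of the 4155 measured probe sets. The control rats had a mean of 10.54 ± 1.64 (SD, n = 4) and the HP rats one of 11.50 ± 0.69 (SD, n = 4), a difference of 0.96 (95% interval -0.74 to 2.67, limma adjusted p = 0.57). Rank products called it higher (FDR 0.00142) and did so without each rat in turn. The size rested on single rats: leaving out control rat 3 gave a difference of 0.41, control rat 2 one of 0.58 and control rat 1 one of 1.497, and limma's array weights gave 1.66. A second probe set showed the same rats low (6.79 and 6.30 in control rats 2 and 3) and a difference of 0.52 (FDR 0.00372).

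**Figure D4:**
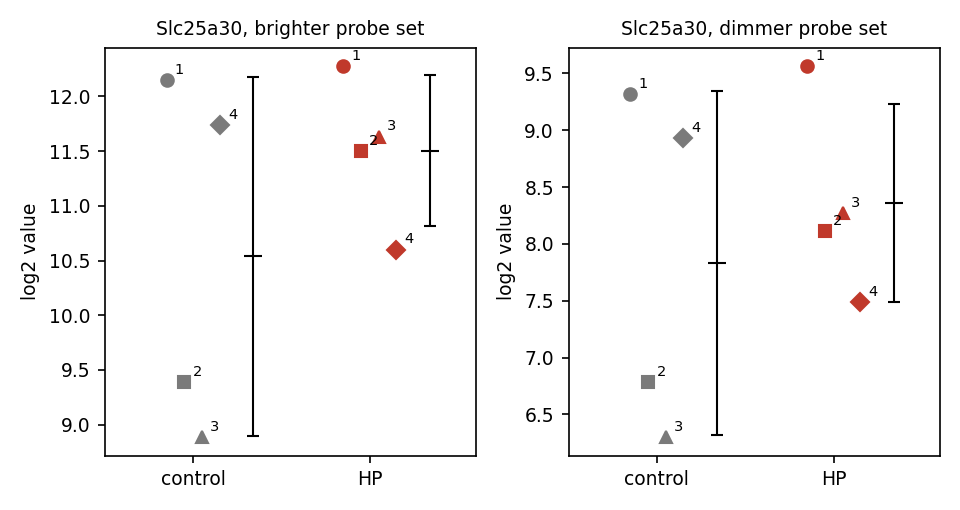
Log2 value (y axis) of both probe sets of Slc25a30 in each rat, numbered by replicate, with the control diet in grey, the HP diet in red and the mean and SD of 4 rats in black. Control rats 2 and 3 lie far below control rats 1 and 4 in both, and the diets overlap.

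Slc25a45, a carrier whose substrate was taken as unsettled here, had log2 values of 7.15, 7.79, 7.84 and 7.20 on the control diet and 7.22, 7.12, 7.14 and 7.51 on the HP diet. Control rats 2 and 3 were the highest of the 8, and control rats 1 and 4 lay among the HP rats. The difference of -0.25 (standard error 0.18) was within the spread between the control rats (SD 0.37, n = 4). Rank products called it lower (FDR 0.0355), but not without control rats 2, 3 or 4 or HP rats 2 or 3 (FDR from 0.0525 to 0.308). Without control rat 3 the difference was -0.13, it was -0.15 without control rat 2, and array weights gave -0.44. Vdac1, the porin that lets metabolites through the outer membrane, differed by -0.03 (95% interval -0.17 to 0.12) at the brighter probe set and by -0.11 at the dimmer one, and neither was called.

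**Figure D5:**
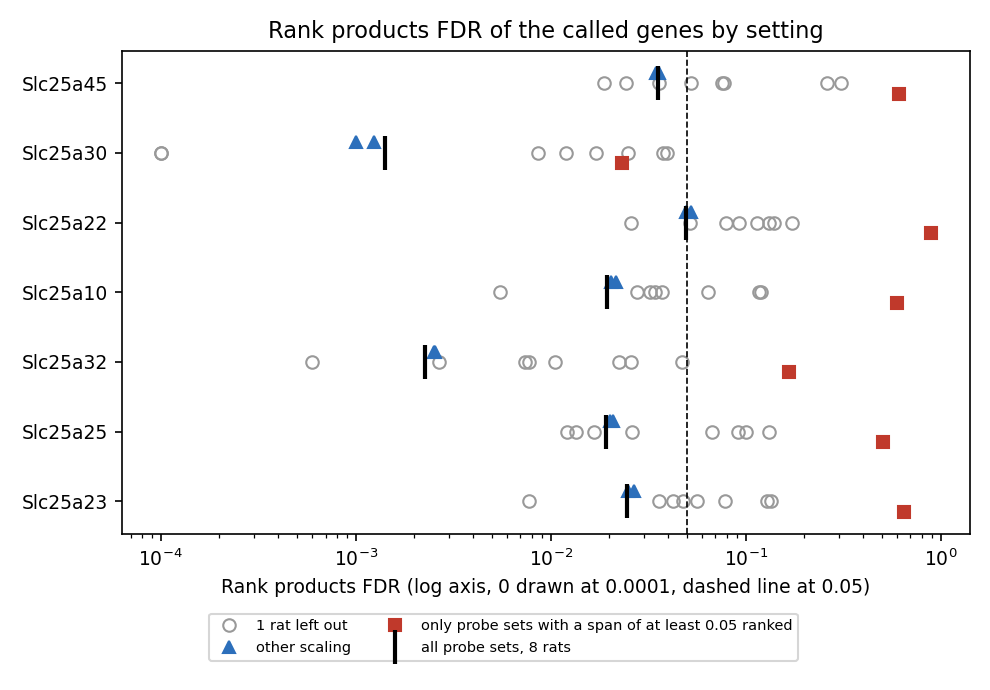
FDR of rank products (x axis, log scale, with an FDR of 0 drawn at 0.0001) for the 7 called genes with all probe sets and 8 rats (black), after another scaling (blue), with 1 rat left out (grey) and with only the probe sets spanning at least 0.05 ranked (red). Slc25a30 stays left of the dashed line at 0.05 in every setting shown, Slc25a32 in all but the last, and the other 5 genes cross it when single rats are left out.

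Among mitochondrial genes outside the rule, rank products called 1 of 11 measured higher and 0 lower, against 8.48% and 9.94% of all measured genes. Of 17 other channels, porins and carriers of mitochondria with a named probe set, 5 were measured and 0 were called by either test, with differences from -0.12 in Letm1, which exchanges cations across the inner membrane, to 0.06 in Mtch2, an outer membrane protein. At an unadjusted p under 0.05 limma gave 0 of these 5, against 5.77% higher and 6.3% lower of all measured genes. With only 5 genes, a count of 0 does not set them apart from these shares. Of 18 genes of protein import and general mitochondrial function, 6 were measured, 0 were lower, and 1 was called higher by rank products. This was Ppargc1a, a coactivator of mitochondrial gene expression, with a difference of 0.28 (FDR 0.0280, limma adjusted p = 0.527). Citrate synthase, Cs, often used as a measure of mitochondrial content, differed by -0.05 (limma adjusted p = 0.824). A negative sign was as frequent in these lists as in the members (78.6%). It held for 4 of the 5 channels, porins and carriers (80%, median -0.03) and for 5 of the 6 general genes (83.3%, median -0.05). Whether these lists differ from the carriers was not tested.

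Within a rat, the median deviation of the 14 members from their means over the 8 rats was -0.05, 0.03, 0.13 and 0.16 (log2) for control rats 1 to 4 and -0.08, -0.02, -0.05 and -0.05 for HP rats 1 to 4. Control rats 3 and 4 were the highest, and control rat 1 lay within the range of the HP rats.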

How the data were processed

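Liver RNA of 8 rats was hybridised to Affymetrix arrays, 4 per diet, with groups and replicate numbers taken from the sample titles. The deposited log2 values were made by the authors, who quantified the CEL files with FARMS in R 2.13.1. How arrays were normalized against each other was not given in the sources used here. No scaling was added. The table held 31099 rows, 57 of them control probe sets, which limma left out. Probe sets were named from the platform annotation where it gave a single symbol (20826 probe sets). Several symbols were listed for 436 and none for 9780.

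The probe set with the highest mean among those spanning at least 0.05 (log2) stood for a gene. Rank products used 16 differences between an HP and a control array and 1000 permutations of the values within each array, over all rows, in Python 3.11.15 with numpy 2.4.6. The moderated model was fitted with limma 3.58.1 in R 4.3.3 with a trend and robust estimation (statmod 1.5.0) over 4155 probe sets. Both were tested on simulated data, where rank products over all probe sets made more false calls than its FDR states. Values were printed for each rat for called members, for differences of at least 0.3 in size and for the phosphate carriers. Those of Mpc2 were added after they were seen. Alternatives were 2 scalings, 4 filters, 3 variance or design settings of limma, the mean of a gene's probe sets and leaving out each rat. The members and lists were chosen with earlier results of these data known. Promoters came from RefSeq (GRCr8), in which 35 of the 41 members were matched. Figures were drawn with matplotlib 3.10.9.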

Additional observations from a re-analysis of the deposited data

Results flagged for a closer look

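Slc25a12 in HP rat 4 had a log2 value of 7.39, apart from the other 3 HP rats, of which the nearest was at 7.26. The gap was 0.844 of the range of the 4 HP rats (above Dixon's 95% critical value for groups of 4). This was 1 of 28 groups of rats examined, and chance flags about 1 in 20.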

How the results depend on the processing

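The count of 0 members past limma held under every alternative run, with a smallest adjusted p from 0.136 to 0.600. Slc25a30 was called higher in every setting of rank products, whose permutations do not keep the spread of a single probe set between rats. The 6 members called lower became 0 when only measured probe sets were ranked and ranged from 1 to 5 with 1 rat left out (1 without control rats 3 or 4, 2 without control rat 2 or HP rat 2). The 1 called higher ranged from 1 to 2, with Mpc2 added without control rat 4. The 5 members at an unadjusted limma p under 0.05 became 2 after centring on measured medians (Slc25a32 lower, Mpc2 higher), 7 with array weights (5 lower, 2 higher), 3 after quantile normalization, 3 with plain empirical Bayes, and ranged from 2 to 4 with 1 rat left out (2 without control rats 3 or 4 or HP rats 2, 3 or 4). The members with no overlap became 1 with no span filter, 1 with the mean of a gene's probe sets, and 1 to 2 with 1 rat left out (2 without control rat 1, 1 without each of the others). Leaving out a rat can only add genes with no overlap, among the members as among all genes. For no overlap and for an unadjusted p, the shares over all measured genes were counted only in the main setting. Changes in these counts are therefore not results about the carriers. The median difference was -4.8e-05 with no span filter, where the almost constant genes enter it, and otherwise from -0.16 to -0.08. Rank products lost Slc25a22 after quantile normalization (FDR 0.0526), and both Slc25a22 and Slc25a45 without the dimmest 25% of probe sets, leaving 4 called lower. The sign turned for Slc25a3 after centring (0.018), with array weights (0.0022) and over the rats left out (-0.032 to 0.020), for Vdac1 (-0.063 to 0.012) and for Slc25a33 (-0.15 to 0.043) over the rats left out. With the replicate number as a block, the 5 became 3 and limma still called 0. Rats with the same number deviated together with correlations of 0.48, 0.03, -0.12 and -0.20, and rats with different numbers with -0.48 to 0.51. With so few rats these values show no pairing by number and cannot exclude one. The cause of these changes was not tested. Dim probe sets limit what can be measured: a span of 0.05 was reached by 1.27% of those whose mean lay between 5 and 7, against 70.1% between 11 and 15.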
